A study of Mus musculus with 6 samples.

Results

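Transcripts of 8 G-protein-coupled receptors that sense lipids and related small metabolites, *Gpr84*, *Hcar2*, *Ffar2*, *Ffar4*, *Gpr35*, *Gpr132*, *Gpr18* and *Gpr183*, were followed in M2c-polarized macrophages with and without the soluble epoxide hydrolase (sEH). The genes were found by their symbols among the 19309 genes of the count table, all 8 were present, and all 8 averaged above 5 counts per library, the limit that 13785 genes passed. The group was chosen by the fold change of *Gpr84* between these same libraries, so that the comparison of the genotypes is given for its members as a description, without p-values. RNA came from macrophages grown from bone marrow monocytes of 3 sEH-/- and 3 wild-type mice, strain-matched littermates aged 8 to 10 weeks. The labels give no sex, but most experiments of the study used cells from females. Cells of both groups were grown in a mixture of both colony-stimulating factors (M-CSF, GM-CSF) over 7 days, exposed to IFN-γ with LPS for 24 hours to give M1 macrophages, and to TGF-β1 for a further 48 hours to give M2c macrophages. These times are those of the labels; the methods give a shorter M1 step. Untreated, M1 and M2a macrophages were not analysed here, so that the genotypes are compared in the repolarized state alone.

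The sEH, encoded by *Ephx2*, hydrolyses epoxides of polyunsaturated fatty acids to diols. Besides these epoxides, macrophages meet fatty acids of every chain length, ketone bodies, lysolipids and oxysterols, and many of these are read by receptors with 7 transmembrane helices that couple to heterotrimeric G proteins. Receptors of the Gi class lower cyclic AMP, which in macrophages generally releases a brake on inflammatory gene expression and on migration, whereas signals are ended by receptor kinases, β-arrestins and regulators of G-protein signaling (RGS proteins). Of the 8 receptors, *Gpr84* responds to medium-chain fatty acids, *Ffar2* to short-chain and *Ffar4* to long-chain fatty acids, *Hcar2* to β-hydroxybutyrate and niacin, and *Gpr183* to oxysterols. The physiological agonists of *Gpr35*, *Gpr132* and *Gpr18* are less settled.

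The libraries held between 4400197 and 6096440 counts, and levels are given as CPM, that is, after TMM normalization to the size of the library, where 1 count corresponded to 0.162 to 0.231 CPM. *Ephx2* counts were 4, 2 and 1 in the knockouts against 26, 49 and 57 in wild-type libraries. The macrophage markers *Adgre1*, *Csf1r*, *Cd68*, *Mertk*, *Fcgr1*, *Itgam*, *Lyz2* and *Cd14* were all well above the count filter, and their summed level lay between 1981 and 2453 CPM in sEH-/- and between 1741 and 2200 CPM in wild-type libraries. The authors removed duplicate reads, which limits the counts of abundant genes. *Lyz2* and *Cd68* averaged 0.881 and 0.886 counts per exonic base, so their levels are limited in this way. A gene was called at an adjusted p below 0.05 in edgeR's quasi-likelihood test with a change of more than 1.5-fold in either direction, which 360 genes or 2.61% of those tested reached. None of the 8 macrophage markers was called, but all had a log2 fold change above 0 (median 0.21). Among them, *Cd14* alone passed the adjusted p (0.50, edgeR adjusted p = 0.029). The number of calls depended on single libraries, and only 6 genes were called without wild-type replicate 3.

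The windows upstream of the 4 receptor genes with a fitted change of more than 1.5-fold in either direction are shown first, since these are the genes for which the genotypes differed most. The sequences are from RefSeq (GRCm38.p6, the build of the count table) and were trimmed to the bases upstream of both the RefSeq start and the outer limit of the gene in the count table. *Gpr84* is read from the minus strand at chr15:103310613-103310688, *Gpr18* from the minus strand at chr14:121915889-121916138, *Ffar4* from the plus strand at chr19:38096829-38097070 and *Gpr183* from the minus strand at chr14:121965196-121965443. Capitals mark matches, on either strand, to any of the motifs listed after the sequences.
Gpr84: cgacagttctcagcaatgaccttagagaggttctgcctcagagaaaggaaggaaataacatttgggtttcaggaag
Gpr18: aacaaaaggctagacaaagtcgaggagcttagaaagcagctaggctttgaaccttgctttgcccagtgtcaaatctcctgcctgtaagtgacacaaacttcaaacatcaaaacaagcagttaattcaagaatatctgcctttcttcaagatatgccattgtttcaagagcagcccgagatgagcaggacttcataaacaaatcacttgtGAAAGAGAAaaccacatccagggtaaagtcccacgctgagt
Ffar4: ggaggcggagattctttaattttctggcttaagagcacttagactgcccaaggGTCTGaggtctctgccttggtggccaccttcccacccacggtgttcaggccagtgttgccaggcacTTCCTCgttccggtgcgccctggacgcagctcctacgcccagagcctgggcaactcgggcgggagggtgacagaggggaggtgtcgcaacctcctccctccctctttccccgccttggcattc
Gpr183: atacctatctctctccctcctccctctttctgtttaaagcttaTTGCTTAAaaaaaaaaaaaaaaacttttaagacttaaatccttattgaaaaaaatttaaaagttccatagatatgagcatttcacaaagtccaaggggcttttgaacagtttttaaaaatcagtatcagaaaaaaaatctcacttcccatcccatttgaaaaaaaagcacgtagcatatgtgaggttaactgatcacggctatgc

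Motifs were searched in the full windows of the table, from 250 bases before to 50 bases after each start. It held 11 such windows for 7 of the 8 genes, *Hcar2* being the gene without one. The interferon-stimulated response element, searched as GAAANNGAA, was present in *Gpr18* and in 8.56% of all 32851 windows. The C/EBP motif TTGCNNAA was found in *Ffar2* and *Gpr183* (10.8% of all windows), the AP-1 motif TGANTCA in *Ffar2* and *Gpr35* (7.81%), and an NF-κB site in *Gpr132* (8.46%). The PU.1/ETS motif GAGGAA was present in *Ffar2*, *Ffar4* and *Gpr35* (28.3%) and the Smad-binding element CAGAC in *Ffar2*, *Ffar4*, *Gpr132* and *Gpr35* (49.6%). None of these letters occurred in the *Gpr84* window. These matches describe the sequence alone, and binding was not tested.

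*Gpr84* was by far the receptor with the widest gap between the genotypes. The gene (ENSMUSG00000063234) is protein-coding and occupies positions 103308235 to 103310612 of chromosome 15 in mm10, minus strand. It encodes the Gi-coupled receptor for medium-chain fatty acids, which is best known from neutrophils, monocytes and macrophages exposed to LPS. The sEH-/- libraries held 148, 189 and 63 *Gpr84* counts, or 25.3, 38.1 and 14.6 CPM. The wild-type libraries held 15, 7 and 8 counts, or 3.29, 1.13 and 1.43 CPM. The lowest sEH-/- library therefore lay well above the highest wild-type library. Within sEH-/- cells, replicate 2 was highest and replicate 3 lowest, and within wild-type cells, replicate 1 was highest. The sEH-/- mean of 26.0 ± 11.8 CPM compared with a wild-type mean of 1.95 ± 1.17 CPM (SD, n = 3 mice each), a fitted log2 fold change of 3.80 (SE 0.44) or 13.9-fold. From the summed counts of 400 and 30, the ratio was 14.4 with an exact 95% interval from 9.91 to 21.6, which covers counting error only.

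*Gpr84* was the 1 receptor of the 8 that was called, against 2.61% of all tested genes called in either direction and 1.51% called higher. It was also the 1 receptor with an adjusted p below 0.05 at any fold change, against 4.01% of all tested genes. Since *Gpr84* was the reason for choosing the group, nothing is read from these counts. With single libraries left out its log2 fold change lay between 3.43 and 4.33, and it was no longer called without wild-type replicate 3 (3.63). An antisense transcript, *Gm49482*, shares 681 of the 1725 exonic bases of *Gpr84* on the opposite strand. Its counts were 1, 5 and 2 in sEH-/- libraries, and wild-type libraries held none. Counting was on the correct strand according to the methods.

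Since *Gpr84* and *Ffar2* are also abundant in neutrophils, markers of other cells were measured beside them. Of 14 neutrophil markers, 11 were in the table and 5 passed the filter, and the summed level of the 11 was 501 to 540 CPM in sEH-/- against 342 to 404 CPM in wild-type libraries. The sum came almost entirely from *Mmp8*, *Lcn2*, *Csf3r*, *Mmp9* and *S100a8*, genes that macrophages can express as well. *Mmp8* was its largest part, with 295 ± 37.3 CPM in sEH-/- against 265 ± 29.6 CPM in wild-type libraries (SD, n = 3 each). *Mmp8* overlapped between the genotypes (log2 fold change 0.15, SE 0.11, edgeR adjusted p = 0.44). At 0.597 counts per exonic base, its level is also limited by the removal of duplicate reads. All 5 had a log2 fold change above 0 (median 0.84). Of these 5, 4 did not overlap between the genotypes, against 26.3% of all tested genes. *Lcn2* (log2 fold change 1.05, SE 0.16, edgeR adjusted p = 0.015) and *Mmp9* (2.0, SE 0.31, edgeR adjusted p = 0.016) were higher in sEH-/- cells. The granulocyte genes *Camp*, *Ngp*, *Ltf*, *S100a9* and *Elane* reached at most 10, 4, 6, 3 and 3 counts in any library, and the chemokine receptor *Cxcr2* at most 1. Of these, *Camp* had 10, 3 and 4 counts in sEH-/- against 1, 1 and 1 in wild-type libraries, and *Camp*, *Ngp* and *Elane* lay higher in CPM in sEH-/- libraries without overlap. Whether neutrophils take part in the *Gpr84* values was not tested. Markers of lymphocytes, of eosinophils and mast cells, and of stromal and erythroid cells summed to at most 35.9, 20.8 and 52.8 CPM in any library. In bulk RNA, fewer cells of a type cannot be told apart from less RNA per cell.

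**Figure D1:**
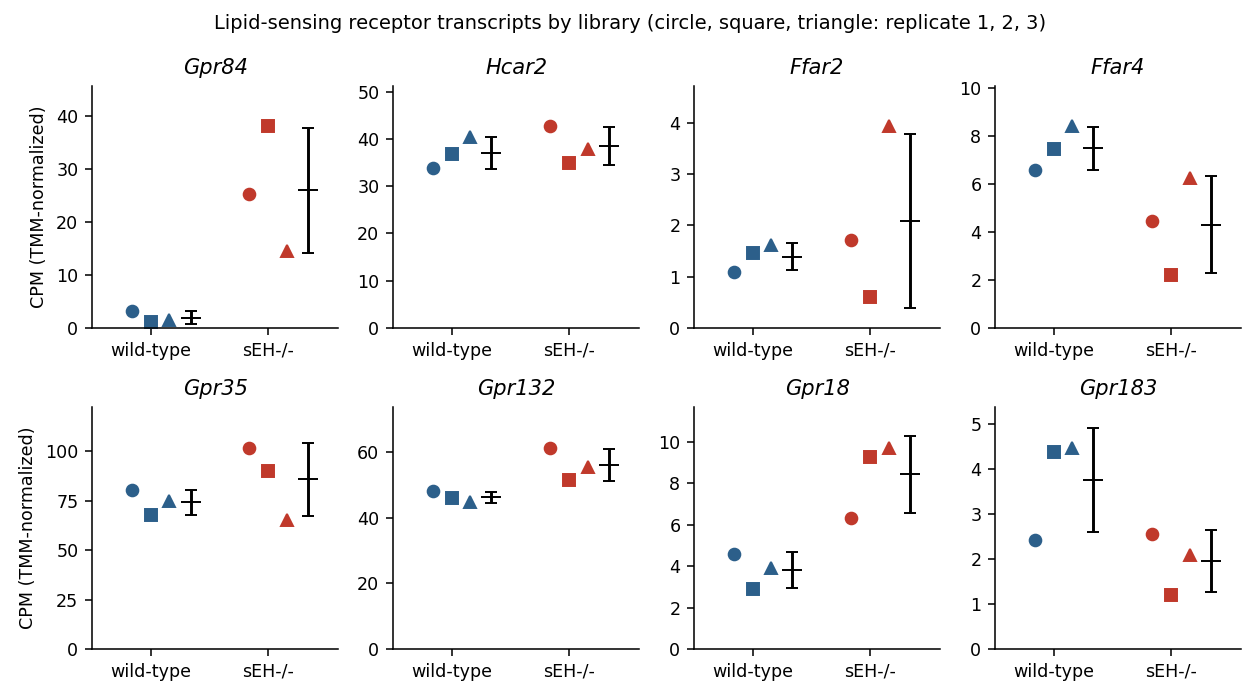
TMM-normalized CPM of the 8 receptor transcripts in each library (blue, wild-type; red, sEH-/-; circle, square and triangle for replicates 1, 2 and 3), with mean ± SD in black (n = 3 mice). *Gpr84* lies between 14.6 and 38.1 CPM in sEH-/- and between 1.13 and 3.29 CPM in wild-type libraries, *Gpr18* is also higher and *Ffar4* lower without overlap, and the *Hcar2*, *Gpr35* and *Ffar2* values of the genotypes overlap.

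Among the receptors for fatty acids of other chain lengths, *Ffar4* had the opposite direction to *Gpr84*. *Ffar4* (ENSMUSG00000054200, chromosome 19, 38097071 to 38114263, plus strand) encodes the receptor for long-chain unsaturated fatty acids, known for restraining inflammatory signaling in macrophages. It had 26, 11 and 27 counts in sEH-/- against 30, 46 and 47 in wild-type libraries, which is 4.44, 2.22 and 6.25 CPM against 6.58, 7.45 and 8.41 CPM. The groups did not overlap, but the highest sEH-/- and the lowest wild-type library were close. The means were 4.30 ± 2.02 (SD, n = 3) and 7.48 ± 0.914 CPM (SD, n = 3), with a log2 fold change of -0.81 (SE 0.33), and the gene was not called. The value was -0.49 without sEH-/- replicate 2 and -1.13 without sEH-/- replicate 3.

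*Ffar2* (ENSMUSG00000051314, chromosome 7, 30818348 to 30823775, minus strand), the receptor for acetate and propionate, was close to the lower limit of detection. Its counts were 10, 3 and 17 in sEH-/- against 5, 9 and 9 in wild-type libraries, and the sEH-/- libraries spanned the whole wild-type range. The log2 fold change of 0.51 was smaller than its standard error of 0.56 and turned to -0.22 without sEH-/- replicate 3. At this depth no difference was detectable.

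*Hcar2* (ENSMUSG00000045502, chromosome 5, 123863570 to 123865499, minus strand), the Gi-coupled receptor for β-hydroxybutyrate and niacin, was expressed at almost the same level in both genotypes. The sEH-/- libraries had 42.7, 34.8 and 38.0 CPM (250, 173 and 164 counts) and the wild-type libraries 33.8, 36.8 and 40.4 CPM (154, 227 and 226 counts). The means of 38.5 ± 3.95 and 37.0 ± 3.33 CPM (SD, n = 3 each) lay within the spread between mice, and the log2 fold change was 0.058 (SE 0.12). Its sign depended on the library left out. From the summed counts of 587 and 607, the exact 95% interval of the ratio ran from 0.929 to 1.17, for counting error only.

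The receptors with less settled agonists were *Gpr35*, *Gpr132* and *Gpr18*. *Gpr35* (ENSMUSG00000026271, chromosome 1, 92950865 to 92986391, plus strand), for which kynurenic acid and lysophosphatidic acid have been proposed, had the most counts of the 8 genes. It had 102, 90.0 and 65.5 CPM in sEH-/- against 80.3, 67.9 and 74.8 CPM in wild-type libraries, and sEH-/- replicate 3 was below every wild-type library. The means were 85.8 ± 18.6 and 74.3 ± 6.24 CPM (SD, n = 3 each), with a log2 fold change of 0.22 (SE 0.14). It was 0.077 without sEH-/- replicate 1 and 0.38 without sEH-/- replicate 3.

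*Gpr132* (ENSMUSG00000021298, chromosome 12, 112850873 to 112868228, minus strand), linked to lysophosphatidylcholine and oxidized fatty acids, differed little but evenly. Its levels were 61.3, 51.4 and 55.3 CPM in sEH-/- against 48.1, 45.8 and 44.7 CPM in wild-type libraries, without overlap. The means were 56.0 ± 5.01 and 46.2 ± 1.69 CPM (SD, n = 3 each). The log2 fold change of 0.28 (SE 0.094) lay between 0.21 and 0.36 in every alternative fit and was below the threshold of 1.5-fold in all of them.

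*Gpr18* (ENSMUSG00000050350, minus strand of chromosome 14, 121911253 to 121915781), a receptor proposed for N-arachidonoylglycine and for a D-series resolvin, was higher in every sEH-/- library. It had 37, 46 and 42 counts in sEH-/- against 21, 18 and 22 in wild-type libraries, or 6.32, 9.27 and 9.72 CPM against 4.61, 2.92 and 3.94 CPM. The means were 8.44 ± 1.85 and 3.82 ± 0.852 CPM (SD, n = 3 each), with a log2 fold change of 1.14 (SE 0.28) or 2.21-fold. It was not called, but lay close to the threshold and was called higher in 8 of 17 alternative fits, among them DESeq2 (1.16) and those without sEH-/- replicate 1 (1.33) or wild-type replicate 1 (1.29). Among the fits without a call were limma-voom (1.12) and those without sEH-/- replicate 2 (1.08) or 3 (1.04). The same held without wild-type replicate 2 (0.97) or 3 (1.17).

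*Gpr183* (ENSMUSG00000051212, minus strand of chromosome 14, 121952551 to 121965195), the oxysterol receptor that guides dendritic cells and B cells, is the neighbor of *Gpr18* and had the opposite direction. Its counts were 15, 6 and 9 in sEH-/- against 11, 27 and 25 in wild-type libraries, or 2.56, 1.21 and 2.08 CPM against 2.41, 4.37 and 4.47 CPM. The low wild-type replicate 1 overlapped the sEH-/- libraries. The means were 1.95 ± 0.686 and 3.75 ± 1.16 CPM (SD, n = 3 each), with a log2 fold change of -0.94 (SE 0.38), and the gene was not called. Of 8 dendritic cell markers, 4 passed the filter, all 4 with a log2 fold change below 0 (median -0.57) and none called. The summed level of the 6 in the table, most of it *Clec9a*, was 29.7 to 61.6 CPM in sEH-/- against 47.6 to 64.1 CPM in wild-type libraries. *Batf3*, a transcription factor of these cells, was lower in every sEH-/- library. *Zbtb46*, the transcription factor that defines classical dendritic cells, had a log2 fold change of -0.98 (edgeR adjusted p = 0.11). Whether such cells take part in the *Gpr183* values was not tested.

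*Gpr18* and *Gpr183* lie 36.8 kb apart, and both sit within *Ubac2*, which is transcribed from the other strand (121878620 to 122021034) and shares no exonic base with them. *Ubac2* had 96.8 ± 0.854 CPM in sEH-/- against 100.5 ± 4.68 CPM in wild-type cells (SD, n = 3 each), a log2 fold change of -0.053 (edgeR adjusted p = 0.69). The ratio of *Gpr18* to *Gpr183* counts, which does not depend on normalization, was 2.47, 7.67 and 4.67 in sEH-/- against 1.91, 0.667 and 0.880 in wild-type libraries, without overlap. It divides a gene with a positive by a gene with a negative fitted change, so nothing further is read from its separation. *Gpr183* had only 6 to 27 counts per library. *Ephx2* is on the same chromosome, 55.8 Mb from *Gpr18*.

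Considering all 8 receptors, 4 did not overlap between the genotypes (*Gpr84*, *Gpr132* and *Gpr18* above and *Ffar4* below the wild-type libraries), against 26.3% of all tested genes (11.8% above and 14.5% below). The fitted change was above 0 in 6 and below 0 in 2 of them, and the median log2 fold change was 0.25, against -0.00085 over all tested genes. No direction was therefore shared by the group. *Gpr84*, by whose fold change the group was chosen, is included in these values, so nothing more is read from them.

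**Figure D2:**
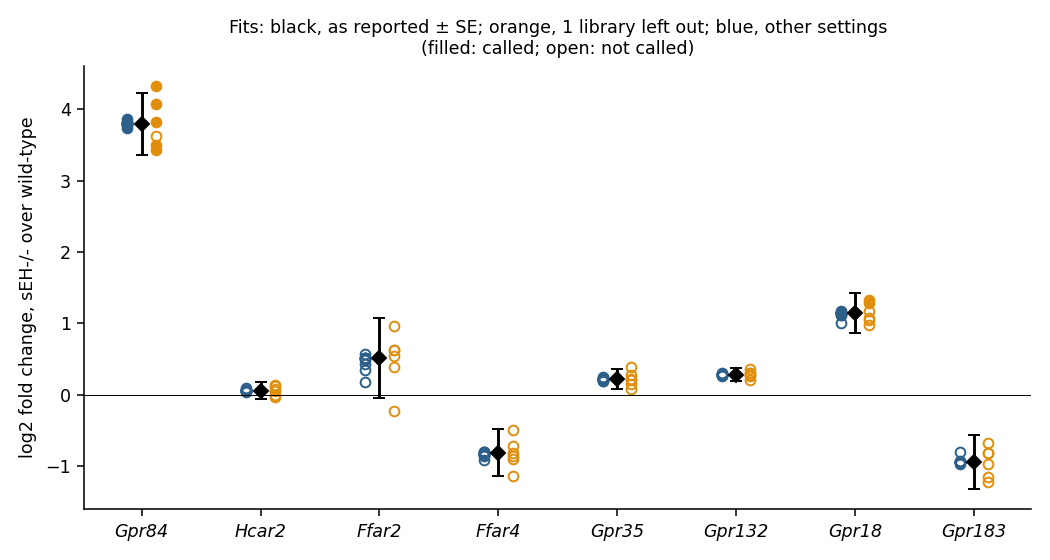
Fitted log2 fold change (sEH-/- over wild-type) of each receptor as reported ± SE (black), with 1 library left out (orange) and under other settings (blue), where filled circles are called and open circles are not. *Gpr84* stays between 3.43 and 4.33 with 1 open circle, *Gpr18* mixes filled and open circles, and *Hcar2* and *Ffar2* cross 0.

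To compare the receptors with each other, counts were divided by exonic length (CPM per exonic kb). In wild-type macrophages *Hcar2* had the highest level with 19.2 ± 1.72, followed by *Gpr132* with 17.0 ± 0.624 and *Gpr35* with 15.4 ± 1.29 (SD, n = 3 each). The ranges of *Hcar2* and *Gpr132* overlapped, as did those of *Gpr132* and *Gpr35*, and 61.3% to 68.9% of tested genes had a lower level than these 3. *Ffar4* followed with 5.34 ± 0.652 and *Gpr18* with 2.55 ± 0.569, each apart from its neighbors. *Gpr183* (1.30 ± 0.402) and *Gpr84* (1.13 ± 0.678) could not be ordered, and *Ffar2* was lowest with 0.498 ± 0.0944, higher than 4.70% of tested genes.

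In sEH-/- macrophages the order was *Gpr132* (20.6 ± 1.84), *Hcar2* (19.9 ± 2.05), *Gpr35* (17.7 ± 3.84) and *Gpr84* (15.1 ± 6.82), and each of these overlapped the next. By the means alone, *Gpr84* stood at place 7 of the 8 receptors in wild-type and at place 4 in sEH-/- cells. Its sEH-/- libraries, at 14.7, 22.1 and 8.45, overlapped those of all 3 genes above it, and in replicate 2 it was the highest of the 8. Its share of the summed level of the 8 receptors was 16.4%, 25.6% and 11.3% in the sEH-/- and 3.04%, 1.10% and 1.29% in the wild-type libraries. The share of *Ffar4* was 3.55%, 1.84% and 5.94% against 7.49%, 8.88% and 9.31%. These shares depend on *Gpr84*, which is part of the sum. The share of *Hcar2* was 24.0 ± 2.69% in sEH-/- against 30.7 ± 2.47% in wild-type libraries (SD, n = 3 each), although its level was similar. The sum itself was 83.5 ± 7.44 in sEH-/- against 62.4 ± 2.30 in wild-type cells (SD, n = 3 each). Lengths are the union of all annotated exons, and with the longest transcript in their place the order in wild-type cells was the same.

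**Figure D3:**
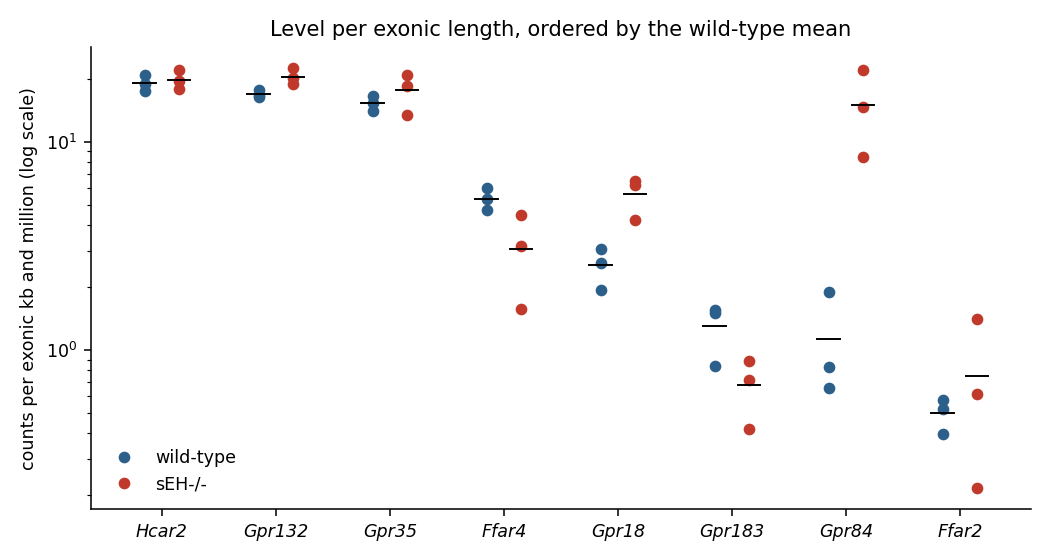
CPM per exonic kb on a log scale for the 8 receptors, ordered by the wild-type mean, with 3 libraries per genotype (blue, wild-type; red, sEH-/-) and the mean as a black bar. *Hcar2*, *Gpr132* and *Gpr35* lie above the other 5 in wild-type libraries, whereas *Gpr84*, with a mean of 1.13 there, spans 8.45 to 22.1 in sEH-/- libraries and overlaps all 3.

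The profile of *Gpr84* over the 6 libraries was compared with those of 10273 other genes averaging at least 50 counts, by the root mean square difference of the log2 CPM values after centering each gene. The most similar genes were *Trem1*, a receptor that amplifies inflammatory signals in myeloid cells (difference 0.48), the interferon-inducible chemokine *Cxcl10* (0.59), *Mefv*, which encodes the inflammasome sensor pyrin (0.88), the neutrophil-attracting chemokine *Cxcl2* (0.88) and the cytokine *Il1b* (0.90). The median difference over all genes compared was 1.96. *Trem1* had 45.1, 54.2 and 13.4 CPM in sEH-/- against 4.39, 1.94 and 4.12 CPM in wild-type libraries, and *Cxcl10* had 51.6, 40.3 and 9.95 CPM against 4.61, 0.810 and 2.5 CPM. Both shared with *Gpr84* the low value of sEH-/- replicate 3, as did *Cxcl2* with 40.8, 24.6 and 16.9 CPM in sEH-/- libraries. Wild-type replicate 2 was the lowest wild-type library in *Gpr84* and in all of these genes. In *Mefv*, with 17.6, 24.0 and 20.1 CPM, and in *Il1b*, with 54.5, 29.0 and 32.4 CPM, sEH-/- replicate 3 was not the lowest. Since the difference between the genotypes dominates these profiles, they describe the libraries and carry no test.

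**Figure D4:**
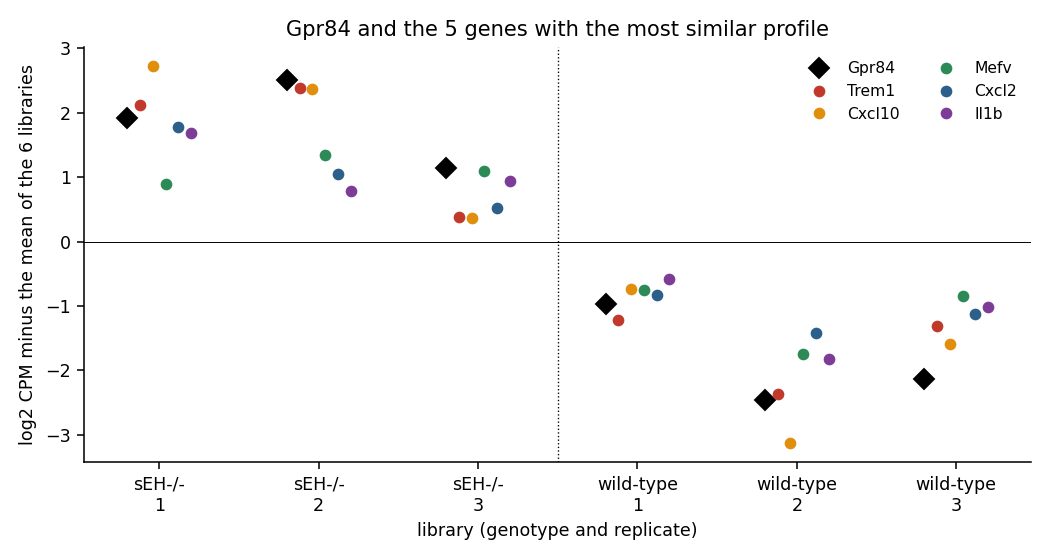
Log2 CPM minus the mean of the 6 libraries for *Gpr84* (diamonds) and the 5 genes with the most similar profile (circles), by genotype and replicate. All 6 genes lie above 0 in sEH-/- libraries and below 0 in wild-type libraries, and in sEH-/- replicate 3 *Trem1* and *Cxcl10* (0.38 and 0.36) lie below *Gpr84* (1.14).

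Further receptors for lipids were taken as a list of 35 genes, of which 23 were in the table and 15 were tested. *Fpr1*, *Fpr2* and *S1pr1* were called higher in sEH-/- macrophages and no gene lower, against 1.51% and 1.1% of all tested genes. The fitted change was positive in 13 and negative in 2 of the 15, with a median log2 fold change of 0.30. Of all tested genes, 6871 had a positive and 6914 a negative change, with a median of -0.00085. *Fpr1*, the high-affinity formyl peptide receptor, had 90.0, 107 and 85.2 CPM in sEH-/- against 50.03, 29.3 and 32.9 CPM in wild-type libraries (log2 fold change 1.35, SE 0.17, edgeR adjusted p = 0.0087). *Fpr2*, which binds formyl peptides as well as lipoxins, had 77.9, 98.3 and 109 CPM against 68.9, 45.0 and 54.6 CPM (0.76, SE 0.16, edgeR adjusted p = 0.031). Reads that map to several places were removed by the authors, so that levels of such related genes may be too low.

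*S1pr1*, the sphingosine phosphate receptor that controls cell egress, had 157, 165 and 108 CPM in sEH-/- against 94.1, 67.1 and 76.8 CPM in wild-type libraries (log2 fold change 0.87, SE 0.16, edgeR adjusted p = 0.025). The chemerin receptor *Cmklr1*, with *Fpr1* and *Fpr2* the highest per length over the 6 libraries, had 174 ± 30.3 and 142 ± 16.0 CPM (SD, n = 3 each) and was not called (0.30, SE 0.12, edgeR adjusted p = 0.18). *Fpr1* lost its call without wild-type replicate 3 (edgeR adjusted p = 0.084). *Fpr2* and *S1pr1* lost theirs without sEH-/- replicate 2 (edgeR adjusted p = 0.085 and 0.061), wild-type replicate 2 (0.15 and 0.12) or wild-type replicate 3 (0.15 and 0.13), and *S1pr1* also with the library total as a covariate (0.051).

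Of 46 listed enzymes and carriers of the receptors' agonists, 41 were in the table and 36 were tested. Of these 36, edgeR called 0, against 2.61% of all tested genes, whereas DESeq2 called 1. The median log2 fold change was -0.0040, with 18 genes on either side of 0. The genes with the highest level per length were the fatty acid transporter *Cd36* (log2 fold change 0.072, edgeR adjusted p = 0.78), *Alox5ap*, the partner protein of leukotriene synthesis (0.092, edgeR adjusted p = 0.61), and the lipid phosphatase *Plpp3* (-0.066, edgeR adjusted p = 0.65). Below the fold change threshold, and named after their values were seen, *Slc16a1*, a carrier of lactate and ketone bodies (-0.49, SE 0.099, edgeR adjusted p = 0.030), and *Cpt2*, a step in mitochondrial import of fatty acids (-0.42, SE 0.084, edgeR adjusted p = 0.030), were lower in sEH-/- cells. *Ch25h*, which makes the oxysterol precursor of the *Gpr183* agonist and is named here after its values were seen, had 12.6, 19.3 and 9.95 CPM in sEH-/- against 7.90, 5.51 and 7.51 CPM in wild-type libraries, without overlap and without a call (1.02, SE 0.27, edgeR adjusted p = 0.063).

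For G-protein subunits, 27 of 28 genes were in the table and 23 were tested. Of these, 0 were called by edgeR, against 2.61% of all tested genes, and 0 by DESeq2. Their median log2 fold change was 0.0059. *Gnai2*, the main inhibitory α subunit of leukocytes to which several of the receptors couple, had 294 ± 28.9 CPM in sEH-/- against 272 ± 32.5 CPM in wild-type macrophages (SD, n = 3 each, log2 fold change 0.11, SE 0.10, edgeR adjusted p = 0.57), and *Gnai3* 199 ± 8.76 and 208 ± 7.11 CPM (SD, n = 3 each, -0.063, edgeR adjusted p = 0.63). *Gna13* was lower in every sEH-/- library without being called (-0.17, SE 0.082, edgeR adjusted p = 0.26).

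Among the effectors of these G proteins, 30 of 36 genes were tested, with a median log2 fold change of 0.042. Of these, 1 gene was called, against 2.61% of all tested genes. *Pde4b*, a phosphodiesterase that degrades cyclic AMP, had 87.1, 100.7 and 65.0 CPM in sEH-/- against 38.6, 22.4 and 26.7 CPM in wild-type libraries (log2 fold change 1.55, SE 0.20, edgeR adjusted p = 0.0087). It lost its call without wild-type replicate 3 (1.50, edgeR adjusted p = 0.084). *Pde3b*, another phosphodiesterase of cyclic AMP, passed the adjusted p alone (0.48, SE 0.12, edgeR adjusted p = 0.049). Its relatives *Pde4a* (-0.097, edgeR adjusted p = 0.61) and *Pde4d* (-0.018, edgeR adjusted p = 0.94) were not called, and these 3 genes were also named after their values were seen. The adenylyl cyclase *Adcy7* was higher in every sEH-/- library, with 361 ± 20.5 against 285 ± 37.8 CPM (SD, n = 3 each), but was not called (0.34, SE 0.10, edgeR adjusted p = 0.076). *Prkar1a* and *Prkaca*, subunits of protein kinase A, had log2 fold changes of 0.091 and -0.085 (edgeR adjusted p = 0.53 and 0.50).

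Of the genes that end receptor signals, 18 were tested from a list of 27 symbols, older names of *Grk2* and *Grk3* included. The median log2 fold change was 0.12, and 3 RGS genes, whose products speed up the return of G proteins to the inactive state, were called higher. Over all tested genes, 1.51% were called higher. *Rgs16* had 10.4, 25.0 and 18.1 CPM in sEH-/- against 8.34, 4.86 and 4.83 CPM in wild-type libraries (log2 fold change 1.58, SE 0.34, edgeR adjusted p = 0.035). *Rgs14* had 61.0, 74.7 and 40.7 CPM against 33.4, 24.1 and 31.3 CPM (1.01, SE 0.20, edgeR adjusted p = 0.029), and *Rgs2* 91.0, 123 and 109 CPM against 82.7, 58.0 and 69.4 CPM (0.62, SE 0.14, edgeR adjusted p = 0.039). Of the 18 tested genes, 7 did not overlap between the genotypes, against 26.3% of all tested genes. *Rgs12* and *Grk4*, named after their values were seen, were among the 7 and lay lower in sEH-/- libraries. The 3 called genes were also among them, but they were picked by this same comparison. All 3 lost their calls without sEH-/- replicate 2 (edgeR adjusted p = 0.11, 0.074 and 0.11 for *Rgs16*, *Rgs14* and *Rgs2*), wild-type replicate 2 (0.17, 0.15 and 0.17) or wild-type replicate 3 (0.17, 0.13 and 0.16), and with the library total as a covariate. *Rgs2* lost its call without sEH-/- replicate 3 as well (0.050), and *Rgs16* in limma-voom (0.054).

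The β-arrestin gene *Arrb2* (log2 fold change 0.22, SE 0.10, edgeR adjusted p = 0.24), the receptor kinase gene *Grk2* (0.15, SE 0.091, edgeR adjusted p = 0.37) and *Rgs19* (0.22, SE 0.084, edgeR adjusted p = 0.14), which had the highest levels per length of this list, were not called.

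**Figure D5:**
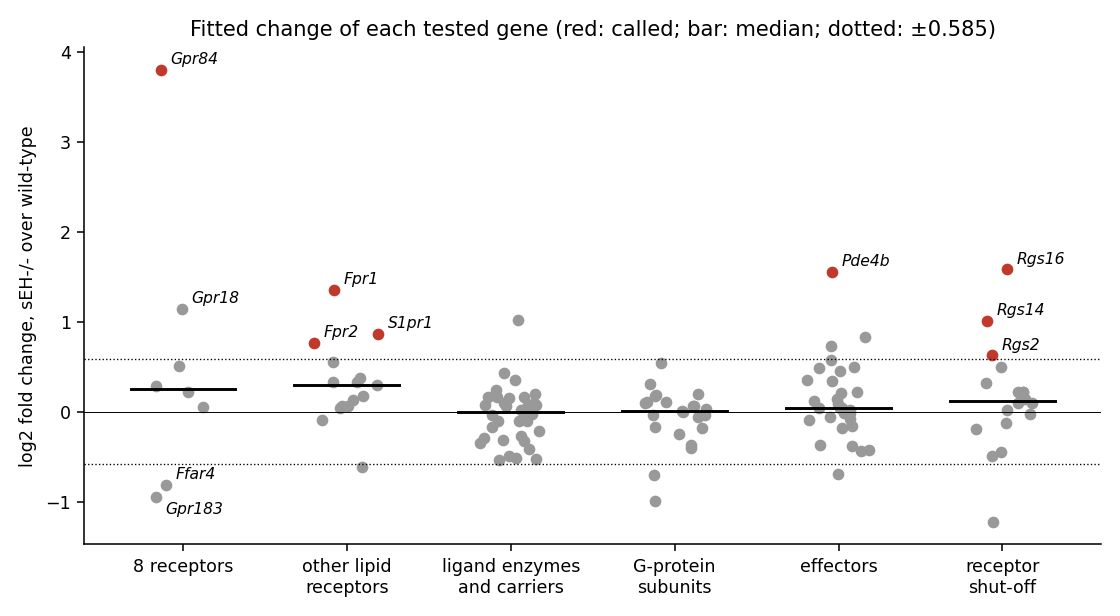
Fitted log2 fold change (sEH-/- over wild-type) of every tested gene among the 8 receptors and in the 5 lists, with called genes in red, the median of each group as a bar and the threshold of 1.5-fold dotted. *Gpr84* at 3.80 stands far above the other receptors, the called genes of the lists lie between 0.62 and 1.58, and the medians lie between -0.0040 and 0.30.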

How the data were processed

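Bulk RNA-seq was performed on M2c-polarized macrophages, with 1 library per mouse. The deposited values are raw counts per gene. To make them, the authors used Trimmomatic and STAR (mm10), discarded reads that were duplicates, mapped to several places or came from ribosomal or mitochondrial RNA, and counted exonic reads by strand with featureCounts. Labels and methods differ in the tool versions, the RNA input and the library kit. Removing duplicates limits the counts of abundant genes, but the 8 receptors averaged at most 0.103 counts per exonic base.

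Differences were tested with edgeR 4.0.16 under R 4.3.3 (TMM, glmQLFit, glmQLFTest), checked on simulated counts, with Benjamini-Hochberg adjustment over all genes tested. The standard error equals the absolute log2 fold change over the root of F. Alternatives were DESeq2 1.42.0, limma 3.58.1 (voom), other scalings and count filters, a replicate block, the library total as covariate, a correction for the ceiling that duplicate removal sets, no fold change threshold, and each library left out. Libraries of 1 genotype differed by more than sampling noise (chi-square per degree of freedom 2.36 to 5.25). Exonic lengths came from GENCODE M21.

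The receptors and lists were chosen with earlier results of these data known. Named are the receptors, *Ephx2*, up to 5 called genes and the 3 highest per length of each list, the 5 genes most like *Gpr84*, and markers set beside a result. Some other genes of the lists, marked in the text, were named after their values were seen, as were *Ubac2* and *Gm49482*, which overlap receptor genes.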

Additional observations from a re-analysis of the deposited data

How the results depend on the processing

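Over all genes, 360 calls (208 higher, 152 lower) became 234 (85 lower) with the replicate block, 171 (121 higher, 50 lower) with the library total as a covariate, 553 (329 higher) without a fold change threshold, and 240 lower without a filter. With 1 library left out they ranged from 6 to 625, of which 4 to 346 were higher and 2 to 312 lower. Of the 8 receptors, 2 in place of 1 were called with DESeq2, RLE, no filter, filterByExpr and the ceiling correction, and 0 to 2 with a library left out; the second was *Gpr18*. *Gpr84* could not be tested with at least 10 counts in every library. Left-out libraries turned *Hcar2* to -0.029 (sEH-/- replicate 1) and -0.00022 (wild-type replicate 1), and *Ffar2* to -0.22 (sEH-/- replicate 3), with highest values of 0.14 and 0.96.

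Called ligand enzymes numbered 1 with DESeq2 and without a filter, 2 without a fold change threshold, and 0 to 3 with a library left out. G-protein subunits had 1 call without a filter. Effectors had 2 calls with DESeq2, without a filter, with at least 10 counts in every library and without a fold change threshold, and 0 to 4 with a library left out. Calls lay between 0 and 4 for other lipid receptors and for receptor shut-off with a library left out. Receptor shut-off had 1 call with the replicate block and 0 with the covariate. With the longest transcript as length, wild-type levels moved to 0.603 for *Ffar2*, 17.6 for *Gpr35* and 18.6 for *Gpr132*. Apart from the fits with fewer libraries or other filters, the cause of these differences was not tested.

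Replicate numbers did not pair the samples: deviations from the genotype means correlated at -0.062, -0.23 and -0.026 for numbers 1, 2 and 3, and no sEH-/- library correlated best with its own number. Under the replicate block *Rgs2* and *Rgs16* lost their calls (edgeR adjusted p = 0.058 and 0.055), and those of the 8 receptors, *S1pr1*, *Fpr1*, *Fpr2*, *Pde4b*, *Rgs14* and the 5 genes most like *Gpr84* did not change. Without wild-type replicate 3, however, these 5 genes all lost their calls (edgeR adjusted p = 0.065 to 0.12). *Trem1*, *Cxcl10* and *Cxcl2* also lost theirs without wild-type replicate 2 (edgeR adjusted p = 0.067, 0.089 and 0.058), and *Cxcl10* in limma-voom (adjusted p = 0.060).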
